A study of Rattus norvegicus with 12 samples.

Results

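A list of 38 genes that carry cells through mitosis and cytokinesis was followed in cultured rat disc cells given TNF-a, a knockdown of TonEBP, or both. The genes were chosen by name, and 37 of the 38 stood, among 12899 genes, in all 3 of the tables that the authors deposited. Racgap1, a regulator of the contractile ring, was not analysed here. The cells were primary nucleus pulposus cells of Wistar rats, grown out of explants from the soft centre of the spinal discs. Lentivirus delivered either the control shRNA vector PLKO or shTon, an shRNA against TonEBP, the osmotic stress transcription factor that Nfat5 encodes. The groups were PLKO_CTR (control vector, untreated), PLKO_TNF (control vector, 50 ng/mL TNF-a for 24 h), shTon_CTR (knockdown, untreated) and shTon_TNF (knockdown, 50 ng/mL TNF-a for 24 h), so all 12 libraries came from transduced cells. Each group held 3 libraries, numbered in the titles as sets 1, 2 and 3. What a set stands for (1 rat, 1 culture, 1 day) is not in the labels, so the p-values speak of the spread among these libraries alone, which may be technical.

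Mitosis begins when the kinase CDK1 binds B-type cyclins. Kinetochores then attach chromosomes to spindle microtubules, the spindle checkpoint holds the anaphase-promoting complex back until every chromosome is attached, and a contractile ring at the spindle midzone divides the cell. Most of these genes are silent in resting cells and are switched on together in G2, through promoter elements that bind the MuvB complexes, so their summed RNA is widely read as a sign of how many cells of a culture are dividing. Adult nucleus pulposus cells divide little in the disc and are made to divide in culture with serum. In bulk RNA, fewer dividing cells and less RNA of these genes per dividing cell cannot be told apart.

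The promoters are shown because the genes are read here as a group with a shared timing. Entries of RefSeq for the build GRCr8, which reach from 250 bases before to 50 bases after the annotated start, matched 33 of the 38 genes by symbol. Ccna2, Aurkb, Tpx2, Ube2c and Racgap1 had no entry. The cell cycle genes homology region (CHR) was searched as the hexamer TTTGAA on either strand (TTCAAA on the other) or TTTAAA, which is its own reverse complement. The CCAAT box was searched as CCAAT on either strand (ATTGG on the other), and both motifs can share at most a single base at their ends. The stretches below end at the base before the start, run 5′ to 3′ along the gene's own strand, and have CHR hexamers and CCAAT boxes in capitals. Cenpf, Kif11 and Cenpe are shown as genes that passed a test below, as did Kif20a, which is not shown. Cdk1 and Top2a are among those that came near the threshold. Ccnb1, Cdc20 and Prc1 are shown as genes of entry, anaphase and cytokinesis, and Nek2 because it has no CHR hexamer.
Cenpf, chr13:103760887-103761046, minus strand: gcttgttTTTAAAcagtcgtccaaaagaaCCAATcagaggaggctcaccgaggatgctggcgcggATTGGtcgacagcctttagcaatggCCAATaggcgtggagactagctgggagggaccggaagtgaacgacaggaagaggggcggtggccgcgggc
Kif11, chr1:244536747-244536866, plus strand: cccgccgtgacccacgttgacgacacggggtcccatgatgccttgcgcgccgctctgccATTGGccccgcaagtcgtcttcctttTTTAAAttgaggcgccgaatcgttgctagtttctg
Cenpe, chr2:226310937-226311056, plus strand: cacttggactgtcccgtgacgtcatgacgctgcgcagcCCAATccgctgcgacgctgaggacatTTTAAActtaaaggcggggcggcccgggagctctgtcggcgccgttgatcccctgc
Cdk1, chr20:19265173-19265292, plus strand: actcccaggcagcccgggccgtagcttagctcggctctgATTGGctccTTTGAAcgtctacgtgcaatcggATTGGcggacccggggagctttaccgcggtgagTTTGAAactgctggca
Ccnb1, chr2:33655226-33655345, minus strand: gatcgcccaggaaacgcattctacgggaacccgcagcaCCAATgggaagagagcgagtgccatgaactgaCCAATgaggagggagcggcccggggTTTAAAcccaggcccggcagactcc
Cdc20, chr5:137255800-137255919, minus strand: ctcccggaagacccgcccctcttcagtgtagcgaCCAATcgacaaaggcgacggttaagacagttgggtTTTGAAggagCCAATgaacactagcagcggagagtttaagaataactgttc
Top2a, chr10:84473094-84473213, minus strand: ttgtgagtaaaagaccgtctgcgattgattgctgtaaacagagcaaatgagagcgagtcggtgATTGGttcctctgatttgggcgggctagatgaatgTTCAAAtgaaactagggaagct
Prc1, chr1:143659361-143659480, plus strand: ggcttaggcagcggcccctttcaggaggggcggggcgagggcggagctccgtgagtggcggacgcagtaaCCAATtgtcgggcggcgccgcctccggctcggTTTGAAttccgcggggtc
Nek2, chr13:105936689-105936808, plus strand: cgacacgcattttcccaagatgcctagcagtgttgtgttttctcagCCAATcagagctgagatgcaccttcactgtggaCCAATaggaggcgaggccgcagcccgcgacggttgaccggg

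A CHR hexamer lay in 31 of the 33 promoters (93.9%), against 18.7% of the 9119 promoters matched to genes of the tables and 27.9% of all 27457 promoters of this length. Nek2, a centrosome kinase gene, and Melk, a kinase gene of dividing cells, were the 2 without one. In 25 of the 33 (75.8%) the hexamer began within 100 bases before the start, as it did in 5.74% of the promoters of genes in the tables. In Kif11 it began 35 bases before the start, in Cenpe 56, in Ccnb1 25 and in Cdc20 51. Cenpf differed in that its hexamers began 153 bases before and 3 bases after the start. A CCAAT box was present in 25 of the 33 promoters (75.8%) and in 37.7% of those of genes in the tables. In 14 of 33 (42.4%) a CCAAT box began 20 to 40 bases before a CHR hexamer, with a spacing of 22 to 37 bases and a median of 26, and this held for 1.12% of the promoters of genes in the tables. That window was set after the spacings had been seen. These motifs were not particular to the 33 genes: of 56 other mitosis genes with a promoter entry, 35 held a CHR hexamer (62.5%), 20 within 100 bases before the start (35.7%), 32 a CCAAT box (57.1%) and 12 the spaced pair (21.4%). Of the 31 DNA replication genes with a promoter entry, 3 held a CHR hexamer (9.68%) and 0 the spaced pair, while 21 held a CCAAT box (67.7%). A match is a string of letters and was not tested as a binding site in these cells.

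**Figure D1:**
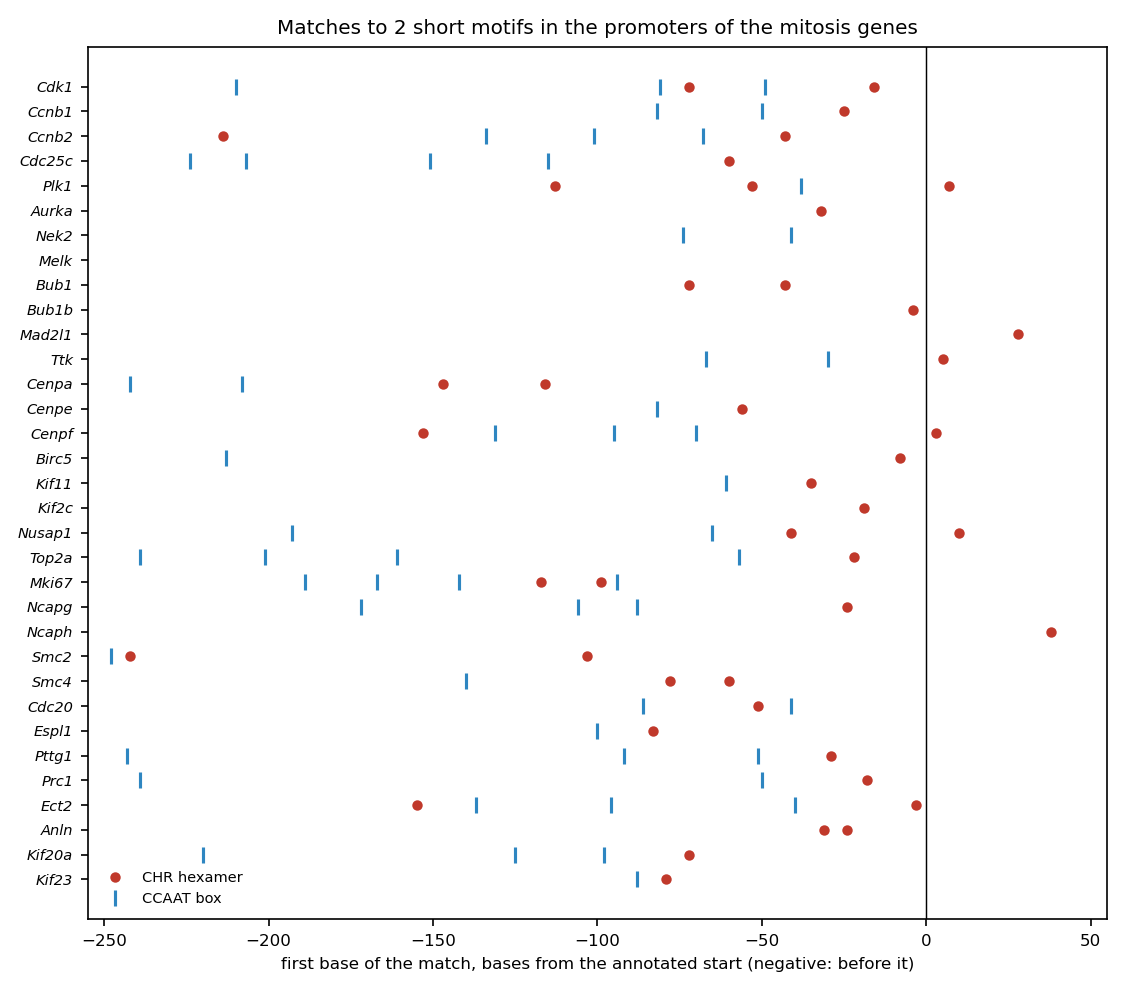
Matches to the CHR hexamers (points) and the CCAAT box (bars) in the promoters of 33 mitosis genes, plotted as the first base of each match relative to the annotated start, in bases. CHR hexamers crowd into the 100 bases before the start, where 25 of 33 genes have one, and CCAAT boxes lie mostly upstream of them.

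Depth ran from 7160042 to 18645538 reads assigned to genes, with no PLKO library under 9113415 and no shTon library over 12511943. Levels below are normalised reads on 1 scale over the 12 libraries, and they are not divided by gene length, so levels are compared between libraries and not between genes. Nfat5, the target of the shRNA, was lower in the knockdown library in sets 1, 2 and 3 without TNF-a (log2 ratios -0.59, -1.58 and -2.66). It did not pass there in limma (-1.61, SE 0.33, adjusted p = 0.0963), nor with TNF-a (-0.26, SE 0.44, adjusted p = 0.799). Over 12 fits, this one and the alternatives described at the end, Nfat5 passed in 3 without TNF-a and in 1 with it. Its groups did not overlap without TNF-a, and how many of all genes did so was not counted. In control cells Nfat5 was lower by value with TNF-a in every set (-0.10, -0.32 and -1.91). With TNF-a the knockdown library had less Nfat5 in sets 2 and 3 (-1.12 and -1.06) but more in set 1 (1.41). There the library labelled shTon_TNF held 1695 normalised reads against 642 in PLKO_TNF. Knockdown with TNF-a and TNF-a in knockdown cells are therefore given with and without set 1, and "knockdown" there means the libraries as labelled. Skeletal muscle markers differed among sets for 14 of 14 genes. Their summed level was 44915 to 102300 normalised reads in the 4 libraries of set 1, 17240 to 31377 in set 2 and 171 to 258 in set 3, where Tnnc2, Tnni2, Myog and Mb were at 0. Of the nucleus pulposus and notochord markers only Krt8, Cd24, Foxf1 and Pax1 were analysed, with summed levels of 202 to 503 in sets 1 and 2 and 1445 to 2484 in set 3, so the labelled cell type could be checked only in part. Of the leukocyte markers only Cd68 and Cd14, and of the endothelial ones only Tek, were analysed.

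By group means the mitosis genes stood highest in untreated control cells and lowest in knockdown cells with TNF-a, but the order of the groups was not the same in every set. Of the 37 genes, 30 had their highest group mean in PLKO_CTR and 31 their lowest in shTon_TNF. Their summed level was 7872, 9079 and 13598 normalised reads in sets 1 to 3 of PLKO_CTR and 6703, 7856 and 9989 in PLKO_TNF. In shTon_CTR it was 10003, 7032 and 8045, and in shTon_TNF 7819, 5037 and 5635. The sums of TNF-a libraries were thus below those of their untreated partner in every set, with either vector, while the groups overlapped. Genes with many reads weigh most in a sum. With TNF-a 31, 20 and 29 of 37 genes were lower in sets 1 to 3 of control cells. In knockdown cells 31, 31 and 25 of 35 were. Knockdown libraries were below their control partner in sets 2 and 3 and above it in set 1. In set 1 the sum was thus highest in shTon_CTR and lowest in PLKO_TNF.

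The order of the sets turned over with the vector. In control cells set 3 was the highest for 34 of 37 genes untreated and 33 of 37 with TNF-a, with medians of 0.73 and 0.60 for the log2 ratio of set 3 to set 1. In knockdown cells set 1 was the highest for 31 and 28 of 37, and the same ratio had medians of -0.49 and -0.44. Cenpf, which encodes a large kinetochore protein that accumulates in G2, held 424, 768 and 1876 normalised reads in sets 1 to 3 of PLKO_CTR and 566, 471 and 575 in shTon_CTR, so its set 1 was the lowest with the control vector and stood level with set 3 in knockdown cells. Mki67, the gene of the Ki-67 proliferation antigen that coats mitotic chromosomes, held 379, 433 and 796 in PLKO_CTR and 555, 248 and 345 in shTon_CTR. With TNF-a Mki67 held 350, 418 and 472 in PLKO_TNF and 787, 170 and 209 in the libraries labelled shTon_TNF, so set 1 of the latter held the highest Mki67 value among the 6 TNF-a libraries.

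**Figure D2:**
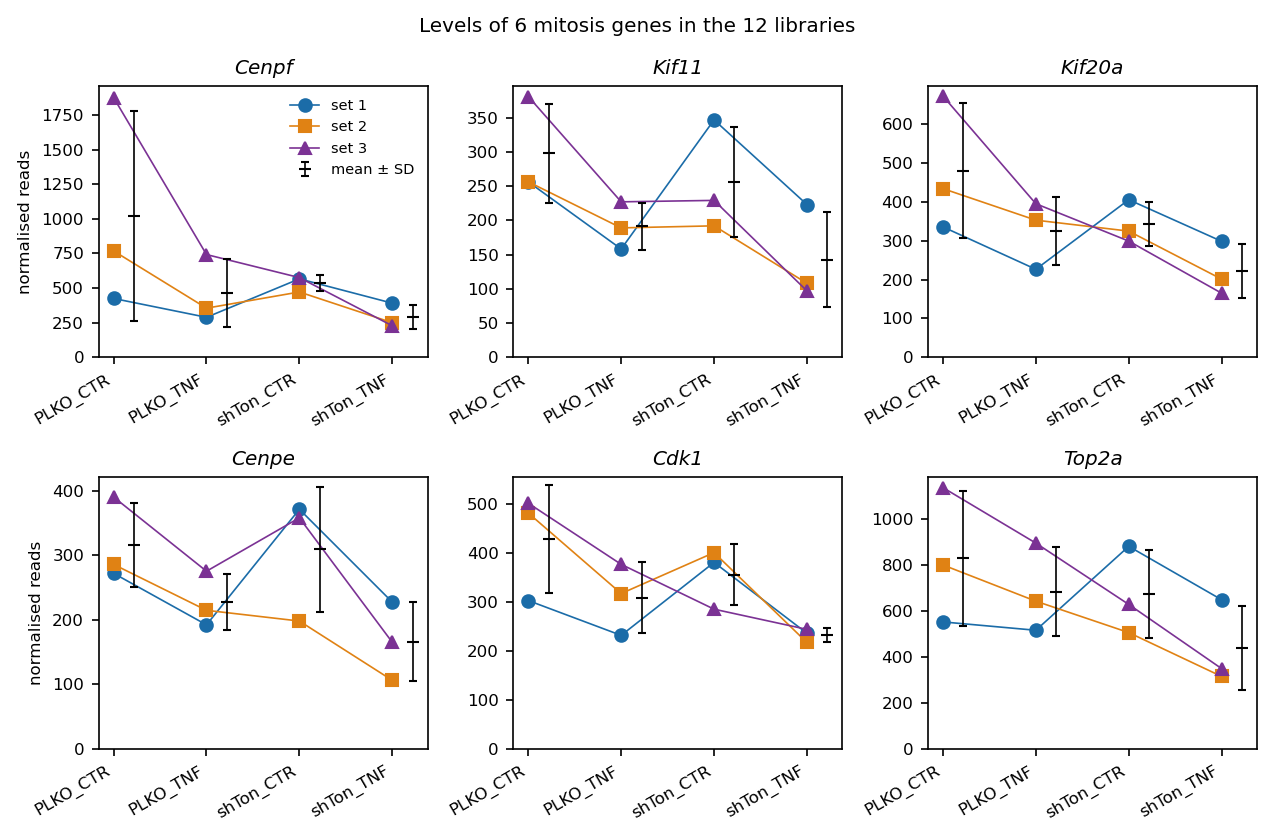
Normalised reads (linear axes from 0) of 6 mitosis genes in the 12 libraries, by group, with a symbol and a thin line for each set and the mean ± SD (n = 3) beside each group. In each of the 6 genes the TNF-a library lies below its untreated partner in every set with either vector. In Cenpf, Kif11, Kif20a and Cenpe set 1 lies lowest or level with the lowest in PLKO_CTR but highest or near it in shTon_CTR.

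TNF-a in cells with the control vector lowered 3 of the 37 mitosis genes and raised 0. The 3 were Cenpf, Kif11 and Kif20a, which serve the kinetochore, the spindle and cytokinesis. They fell by 1.46- to 2.00-fold. The share of genes of the whole table that fell was 4.65%, and 9.62% changed in either direction, so 3 of 37 is near the background. At an unadjusted p under 0.05 there were 10 of 37, against 29% of all genes. By value 31 of 37 were lower, with a median log2 fold change of -0.22 against -0.01 for all genes tested. In 16 of 37 the TNF-a library was the lower in every set, against 26.6% of all genes.

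Cenpf (ENSRNOG00000003388) held 288, 354 and 742 normalised reads in sets 1 to 3 of PLKO_TNF, against 424, 768 and 1876 in PLKO_CTR. It was lower in every set, by log2 ratios of -0.56, -1.11 and -1.34, although the groups overlap because set 3 stood far above the others. Its log2 fold change was -1.003 (SE 0.16, limma adjusted p = 0.0172). Kif11 (ENSRNOG00000016715), the motor that pushes spindle poles apart, went from 256, 256 and 381 in PLKO_CTR to 158, 189 and 227 in PLKO_TNF. All 3 TNF-a libraries lay below all 3 untreated ones. Kif11 was the only member tested of which this held, and the share of all genes was not counted. The log2 fold change was -0.63 (SE 0.13, adjusted p = 0.0346). Kif20a (ENSRNOG00000024428), a midzone motor needed for cytokinesis, went from 336, 435 and 673 to 227, 353 and 396, lower in every set with overlapping groups (-0.54, SE 0.13, adjusted p = 0.0461).

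The next genes missed the threshold. Cdk1, the kinase that starts mitosis, held 303, 481 and 501 normalised reads in PLKO_CTR and 232, 317 and 377 in PLKO_TNF (log2 fold change -0.47, SE 0.12, adjusted p = 0.0502). Cenpe, a kinetochore motor that lines chromosomes up, held 272, 286 and 390 and then 192, 215 and 275 (-0.47, SE 0.12, adjusted p = 0.0537). Nusap1, which bundles spindle microtubules near chromosomes, had -0.66 (SE 0.18, adjusted p = 0.0663). Each was lower in every set. Cdk1's cyclin partners were nearer to 0 by value, with -0.12 for Ccnb1, -0.08 for Ccnb2 and -0.08 for Ccna2. Tpx2, a spindle assembly factor that activates Aurora A, went the other way by value. It held 278, 263 and 427 in PLKO_CTR and 439, 308 and 526 in PLKO_TNF, higher in every set with overlapping groups, and did not pass (0.40, adjusted p = 0.0980). Ube2c, the ubiquitin-conjugating enzyme of the anaphase-promoting complex, was also higher in every set, by 0.14. Nek2 had the highest estimate (1.03) on 2.27 to 16.5 normalised reads per library, and set 1 went against it.

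By role, the centromere and passenger genes had a median of -0.39 in control cells, with 5 of 5 lower by value. The spindle motors and assembly factors lay close to them (-0.38, with 3 of 4 lower). The -0.39 is the value of Cenpa, which held 9.61 to 26.0 normalised reads over the 12 libraries. Nearest 0 was the median of the entry kinases and cyclins (-0.08, with 5 of 9 lower). The 4 spindle checkpoint genes were all lower by value, from -0.04 for Mad2l1 to -0.41 for Bub1, as were the 5 cytokinesis genes and the 6 of chromosome structure. Within sets, the median ratio of the 37 genes was -0.23, -0.05 and -0.29, so the median of set 2 lay near 0 while Cenpf, Kif11 and Kif20a were lower there too. Of the chromosomal passenger genes, which correct wrong attachments, Aurkb had -0.09 and Birc5 -0.05, and the microtubule-depolymerising kinesin gene Kif2c had -0.14. The authors' deposited table also lists Cenpf, Kif11 and Kif20a as lower and no member as higher at an adjusted p under 0.05, where 5.82% of its genes were lower and 11.8% changed in either direction. Without any 1 of the sets only Cenpf passed limma, and 0 of the 37 passed without the pairing by set, without limma's mean-variance trend or with the spread taken from all 12 libraries. Beside these values, 12 of 14 muscle markers were lower by value with TNF-a and 1 fell, with sums of 195 to 57198 normalised reads in PLKO_CTR and 171 to 44915 in PLKO_TNF, and 7 of 8 fibroblast and annulus markers tested were lower by value and 2 fell, with sums of 39947 to 157160 and 34202 to 92760. The 4 nucleus pulposus and notochord markers were lower in every set, with a median of -1.10, and 2 fell: Krt8, a keratin gene (-1.10, SE 0.20, adjusted p = 0.0230), and Pax1, a transcription factor gene (-1.45, SE 0.26, adjusted p = 0.0232). Their sums were 383 to 2484 in PLKO_CTR and 202 to 1445 in PLKO_TNF. The part of these markers in the result was not tested.

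TNF-a in knockdown cells lowered 3 of the 35 mitosis genes that passed the filter and raised 0. Cenpe fell by 1.87-fold, Cenpf by 1.90-fold and Kif11 by 1.86-fold. In all 1.33% of genes fell and 3.28% changed in either direction. By value 31 of 35 were lower, with a median log2 fold change of -0.40 (all genes -0.01), and 22 of 35 were lower in every set, against 22.6% of all genes. At an unadjusted p under 0.05 there were 15 of 35, against 18.8% of all genes. Cenpf and Kif11 passed with TNF-a in both control and knockdown cells. The 2 comparisons share no library, but they come from the same 3 sets, so they are not known to be independent.

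Cenpe (ENSRNOG00000009339) held 371, 198 and 358 normalised reads in shTon_CTR and 227, 106 and 165 in shTon_TNF. It was lower in every set, with groups that overlap because set 2 was low in both (-0.90, SE 0.16, adjusted p = 0.0313). Cenpf went from 566, 471 and 575 to 391, 249 and 227, and here all 3 TNF-a libraries lay below the untreated ones (-0.93, SE 0.18, adjusted p = 0.0424). Kif11 went from 347, 192 and 229 to 223, 108 and 96.9, lower in every set with overlapping groups (-0.90, SE 0.18, adjusted p = 0.0465).

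Smc4, the ATPase core of condensin, came next and did not pass. It held 1118, 1157 and 1363 normalised reads in shTon_CTR and 728, 826 and 859 in shTon_TNF, 2 ranges that do not overlap (-0.59, SE 0.12, adjusted p = 0.0501). Top2a, the topoisomerase that untangles sister chromatids, held 880, 505 and 627 and then 648, 314 and 348 (-0.66, SE 0.14, adjusted p = 0.0546). Kif20a had -0.66 (SE 0.15, adjusted p = 0.0688) and Cdk1 -0.60, and in both the groups did not overlap. How many of all genes had groups that did not overlap was not counted. The 5 cytokinesis genes (the midzone bundler Prc1, the RhoA activator Ect2, the ring scaffold Anln, Kif20a and Kif23) were lower in every set. Of the 6 genes of chromosome structure, 5 were lower in every set, the condensin genes Smc2, Smc4, Ncapg and Ncaph among them. Mki67 was the exception, higher in set 1 (0.50) and lower in sets 2 and 3 (-0.54 and -0.72). The entry kinases and cyclins again lay nearest 0 (median -0.15), with the phosphatase gene Cdc25c at 0.20 and Aurka, Aurora kinase A, at 0.07. Birc5 had -0.25, Aurkb -0.08, Kif2c -0.38 and the checkpoint kinase gene Bub1b -0.40.

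These counts depended on the sets. Without set 1, whose library labelled shTon_TNF had high Nfat5, 7 of 35 fell (Cenpf, Cenpe, Kif11, Top2a, Kif20a, Smc4 and Mki67), beside 4.72% of all genes. Without set 2 or without set 3, 0 passed. Muscle markers were lower by value in 12 of 14 and 1 fell, with sums of 258 to 102300 normalised reads in shTon_CTR and 256 to 84663 in shTon_TNF. Of the 4 nucleus pulposus and notochord markers 3 were lower by value, with a median of -0.74 and sums of 386 to 2336 and then 294 to 1505, and Krt8 fell (-0.83, SE 0.15, adjusted p = 0.0316). Of 9 fibroblast and annulus markers 8 were lower by value and 0 passed, with sums of 41587 to 186500 and 28352 to 150570. The part of these markers was not tested.

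**Figure D3:**
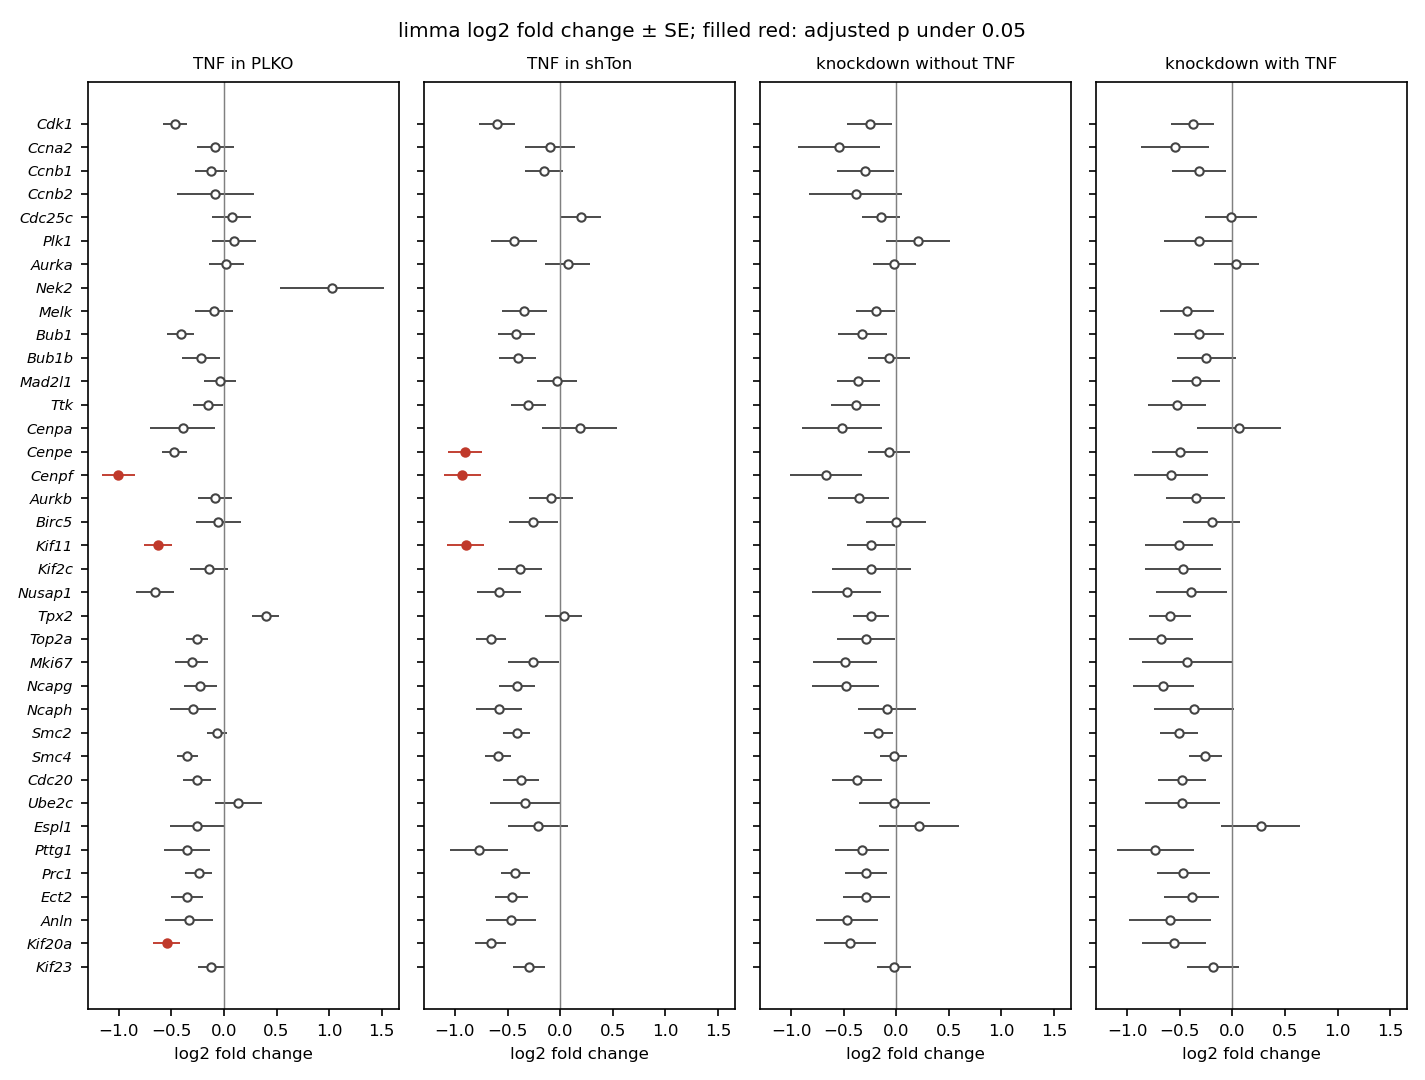
Log2 fold change ± SE from limma for each mitosis gene that passed the filter in 4 comparisons, on a shared axis, with filled red points for an adjusted p under 0.05. With TNF-a most genes lie left of 0 and 3 are filled in each of the 2 panels, while the knockdown panels have longer error bars and 0 filled points.

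Whether knockdown changed the size of the TNF-a effect was asked of the interaction, fitted over 12 libraries. Of the 36 genes tested 0 passed in limma, as did 0.0% of all 12310 genes. At an unadjusted p under 0.05 there were 0 of the 36, against 1.78% of all genes, and edgeR and DESeq2 called 0 as well. By value 27 of 36 were lower, which means a lower TNF-a ratio in knockdown than in control cells, with a median of -0.14. The smallest p belonged to Smc2 (-0.35, 95% interval -0.83 to 0.13), Smc4 (-0.24, -0.61 to 0.13) and Tpx2 (-0.36, -0.98 to 0.25), all with adjusted p = 0.999. Cenpa, the centromere histone gene, had 0.57, Cenpe -0.43 and Plk1, the Polo kinase gene, -0.53. Cenpf had 0.07 with an interval of -1.23 to 1.38. That fit gives both vectors the same set term, while the order of the sets differed between them. A fit with a set term for each vector, added after the data had been seen, compares the TNF-a ratios of the pairs, leaves the estimates as they are and gave narrower intervals for these genes. Cenpf then had -0.51 to 0.66, on within-set differences of 0.02, 0.20 and 0.0004. Top2a differed by -0.34, -0.37 and -0.50 in sets 1 to 3 (-0.40, interval -0.78 to -0.03), Smc2 by -0.32, -0.29 and -0.43 (-0.35, -0.68 to -0.02), Cenpe by -0.21, -0.48 and -0.61 (-0.43, -0.85 to -0.02) and Plk1 by -0.58, -0.56 and -0.46 (-0.53, -1.17 to 0.10), so in each the TNF-a ratio was the lower one in knockdown cells in every set. In all 9 of 36 were lower in every set, against 15.7% of all genes. In that fit 0 of the 36 passed and the 4 genes had adjusted p = 0.993, with 3 of the 36 (Top2a, Smc2 and Cenpe) at an unadjusted p under 0.05, against 3.7% of all genes. Without the set 1 library labelled shTon_TNF, the fit with the same set term for both vectors gave a median of -0.40, with 33 of 36 lower. That fit is not made of pairs within a set, so it can take in the order of the sets, which differed between the vectors. The medians of the within-set differences were -0.13, -0.37 and -0.01 in sets 1 to 3.

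Knockdown without TNF-a changed 0 of the 36 mitosis genes tested, in limma, edgeR and DESeq2 alike, although nearly all had lower means. At an unadjusted p under 0.05 there were 0 by limma, where 17% of all genes lay, 0 by edgeR and 1 by DESeq2. Of all genes, 0.0969% fell and 0.113% changed in either direction, so few genes of any kind passed. By value 34 of 36 were lower, with a median of -0.29 (all genes 0.01). Only 3 of the 36 (Cdc25c, Melk and Cenpa) were lower in every set, against 20.2% of all genes. In Cdc25c and Cenpa the groups did not overlap on the scale of that fit, and how many of all genes did so was not counted.

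The sets moved in opposite directions. In set 1 the median log2 ratio of knockdown to control was 0.37, with 3 of 36 genes lower. In sets 2 and 3 it was -0.42 and -0.79, with 34 and 35 of 36 lower. Cenpf had ratios of 0.41, -0.71 and -1.70 (log2 fold change -0.67, SE 0.34, adjusted p = 0.359). Kif20a held 336, 435 and 673 normalised reads in PLKO_CTR and 406, 325 and 299 in shTon_CTR (-0.44, SE 0.25, adjusted p = 0.408), so the knockdown library was higher in set 1 and lower in the others. The checkpoint genes Mad2l1 (-0.36, adjusted p = 0.416) and Ttk (-0.39, adjusted p = 0.439), Mki67 (-0.49, adjusted p = 0.447) and Anln (-0.47, adjusted p = 0.451) had the same pattern of signs. Espl1, the separase that cuts cohesin, and Plk1 were the 2 genes above 0 by value, at 0.22 and 0.20.

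Without set 1, 36 of 36 were lower by value and the median was -0.58. Mki67 (-1.01, SE 0.17, adjusted p = 0.0469) and Top2a (-0.76, SE 0.14, adjusted p = 0.0492) then fell, beside 1.76% of all genes. These rest on 2 sets, chosen after the direction of set 1 had been seen. The authors' deposited table lists 0 members at an adjusted p under 0.05, with 0.515 as the smallest, where 3.59% of its genes changed. The 14 muscle markers were higher by value with knockdown in 12, and 0 passed, with sums of 195 to 57198 in PLKO_CTR and 258 to 102300 in shTon_CTR. In set 3 the sums of the muscle markers were 195 and 258, with 4 of them at 0. Of 9 fibroblast and annulus markers 5 were higher by value and 0 passed (sums of 39947 to 157160 and 41587 to 186500), and of 4 nucleus pulposus and notochord markers 2 were higher and 0 passed (383 to 2484 and 386 to 2336).

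Knockdown with TNF-a gave the same picture, in libraries taken as labelled. Of the 35 genes tested 0 passed in limma, edgeR and DESeq2, where 0.139% of all genes fell and 0.254% changed. At an unadjusted p under 0.05 there were 2 by limma, where 17% of all genes lay, 2 by edgeR and 3 by DESeq2. By value 32 of 35 were lower, with a median of -0.43 (all genes 0.02), and 6 of 35 were lower in every set, against 19.8% of all genes. The medians of sets 1 to 3 were 0.27, -0.66 and -0.71, with 6, 32 and 35 of 35 lower.

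Tpx2 was lower in every set. It held 439, 308 and 526 normalised reads in PLKO_TNF and 373, 199 and 276 in shTon_TNF (-0.59, SE 0.20, adjusted p = 0.200). Smc2 held 879, 967 and 950 in PLKO_TNF and 776, 689 and 519 in shTon_TNF (-0.51, SE 0.18, adjusted p = 0.226). It was the only member tested whose groups did not overlap, and the share of all genes for which this held was not counted. Ncapg had -0.66 (adjusted p = 0.301), Top2a -0.68 (0.304), Cdc20, the activator of the anaphase-promoting complex, -0.48 (0.333), and Pttg1, securin, -0.73 (0.359). Of these, Ncapg and Top2a were higher in set 1, by 0.13 and 0.34. Without set 1, 33 of 35 were lower by value with a median of -0.71, and 4 fell: Top2a (-1.19, adjusted p = 0.00593), Mki67 (-1.23, adjusted p = 0.00744), Kif20a (-1.03, adjusted p = 0.0267) and Cenpf (-1.10, adjusted p = 0.0269), beside 2.51% of all genes. That value too rests on 2 sets chosen after set 1 had been seen, here also with Nfat5 against its label in set 1. The authors' deposited table lists 0 members at an adjusted p under 0.05, with 0.244 as the smallest, where 3.31% of its genes changed. Muscle markers were higher by value in 12 of 14, with 0 called and sums of 171 to 44915 in PLKO_TNF and 256 to 84663 in shTon_TNF. Of 8 fibroblast and annulus markers tested 4 were higher in every set and 4 were lower by value, with a median of 0.26. Among those higher 1 rose, the collagen gene Col3a1 (1.53, SE 0.21, adjusted p = 0.0389), while Col1a1 had 1.56 and Col1a2 1.03. The sums of the fibroblast and annulus markers were 34202 to 92760 and 28352 to 150570. The 4 nucleus pulposus and notochord markers were higher by value and 0 passed, with sums of 202 to 1445 and 294 to 1505. The part of these markers in either knockdown comparison was not tested.

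**Figure D4:**
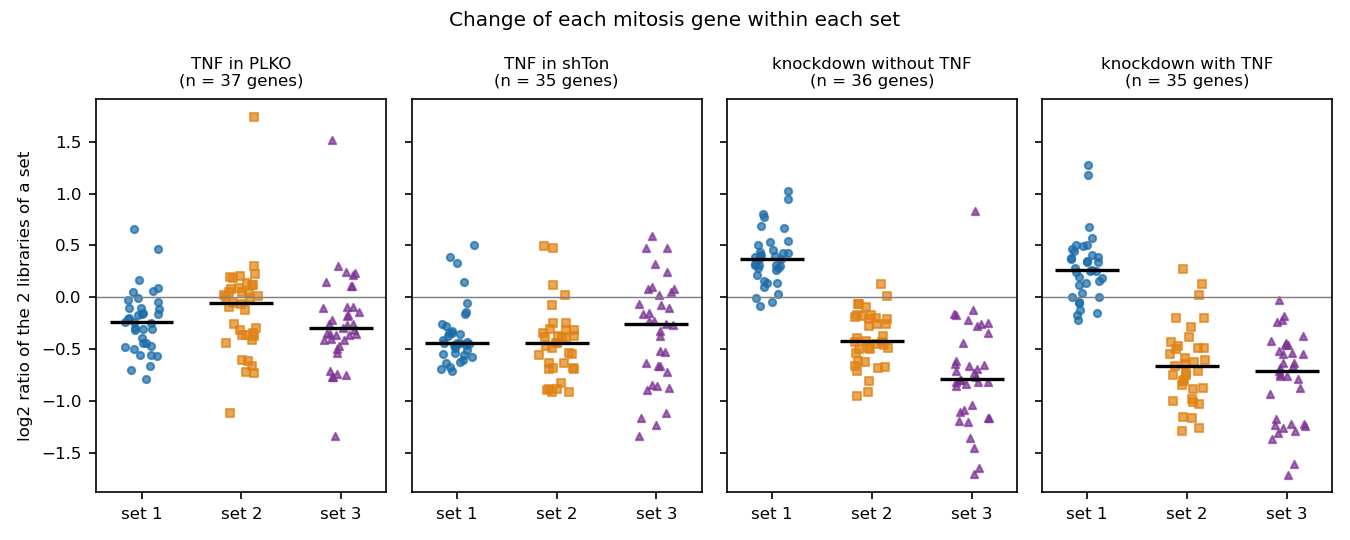
Log2 ratio of the 2 libraries of each set for every mitosis gene that passed the filter, in 4 comparisons, with 1 symbol for a gene and a black bar for the median of a set. With TNF-a the medians of all sets lie below 0 (-0.05 to -0.44), while with knockdown the median of set 1 lies above 0 (0.37 and 0.27) and those of sets 2 and 3 below.

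The means of the sets over all 4 groups were compared as well. Of 36 mitosis genes tested, 4 passed the F test of limma for the set (11.1%), against 45.4% of all 12310 genes. Espl1 averaged 40.3 ± 17.2, 28.9 ± 10.7 and 87.8 ± 28.5 normalised reads in sets 1 to 3 (SD, n = 4 libraries, adjusted p = 0.00841), highest in set 3. Ttk averaged 264 ± 50.1, 134 ± 48.3 and 217 ± 64.4 (adjusted p = 0.0102), lowest in set 2. Smc4 averaged 905 ± 171, 1033 ± 177 and 1240 ± 312 (adjusted p = 0.0159), and Pttg1 65.8 ± 4.86, 38.5 ± 12.8 and 40.2 ± 20.1 (adjusted p = 0.0403), highest in set 1. Tpx2 (adjusted p = 0.0572) and Cdc20 (adjusted p = 0.0647) came next. The share is set by the spread within a set as well as by the means, and in these genes that spread holds the opposite order of the sets with the 2 vectors given above. How far that order bears on the share was not tested.

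Other genes of the cell cycle were set beside these. A list of 67 other mitosis genes with a row had medians below 0 in the same 4 comparisons. With TNF-a in control cells 1 of 67 fell and 0 rose, with 42 lower by value and a median of -0.08. There 17 of 67 were lower in every set (25.4%), which is near the 26.6% of all genes. The gene that fell was Kif4a, a chromokinesin (-0.65, SE 0.15, adjusted p = 0.0452). In knockdown cells TNF-a changed 0 of 65, with 44 lower and a median of -0.17. Knockdown changed 0 of 67 without TNF-a and 0 of 66 with it, with 52 and 56 lower by value and medians of -0.23 and -0.30. Gtse1, a G2 and S phase protein that binds p53, was higher in every set with knockdown, by 0.62 without TNF-a (SE 0.13, adjusted p = 0.0973) and 0.67 with it (SE 0.17, adjusted p = 0.128), and did not pass.

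DNA replication genes, which act in S phase, were mostly higher by value with TNF-a and mostly lower with knockdown. With TNF-a in control cells 0 of 36 passed, 9 were lower by value and the median was 0.14. Their set medians were -0.33, 0.40 and 0.34, where those of the mitosis genes were -0.23, -0.05 and -0.29. Pcna, the sliding clamp of DNA polymerases, had ratios of -0.10, 0.62 and 0.77. In knockdown cells TNF-a gave 13 of 36 lower and a median of 0.06, with 0 passed. With knockdown 33 of 36 were lower without TNF-a (median -0.30) and 34 of 36 with it (median -0.46), and 0 passed in either. Their set 1 medians there were -0.14 and -0.008, where those of the mitosis genes were 0.37 and 0.27. Without TNF-a 18 of 36 were lower in every set, against 3 of 36 mitosis genes and 20.2% of all genes. With it 15 of 36 were, against 6 of 35 and 19.8%. Prim1, the DNA primase gene, was lower in every set of both (-0.74 and -0.83, adjusted p = 0.141 and 0.103).

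Among regulators of CDK activity, the inhibitor gene Cdkn2c fell with TNF-a in control cells (-1.26, SE 0.18, adjusted p = 0.0117) and in knockdown cells (-0.91, SE 0.16, adjusted p = 0.0351). The inhibitor gene Cdkn1b fell in both as well (-0.79, SE 0.19, adjusted p = 0.0480, and -0.83, SE 0.13, adjusted p = 0.0202). They were the 2 of 15 listed inhibitors and repressors that passed in each. The cyclin gene Ccnd1, which drives G1, was higher by value in control cells (0.79, SE 0.22, adjusted p = 0.0702) and rose in knockdown cells (0.84, SE 0.16, adjusted p = 0.0385), the only one of 11 G1 cyclins and kinases that passed in either. Cdkn1a, which encodes the CDK inhibitor p21, was higher with knockdown in every set. It held 4290, 4357 and 2920 normalised reads in PLKO_CTR and 6257, 6041 and 8710 in shTon_CTR, and 3749, 3538 and 2673 in PLKO_TNF and 5365, 5267 and 7643 in shTon_TNF. The groups did not overlap in either pair, and the fold changes did not pass (0.86, SE 0.22, adjusted p = 0.134, and 0.87, SE 0.23, adjusted p = 0.135).

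**Figure D5:**
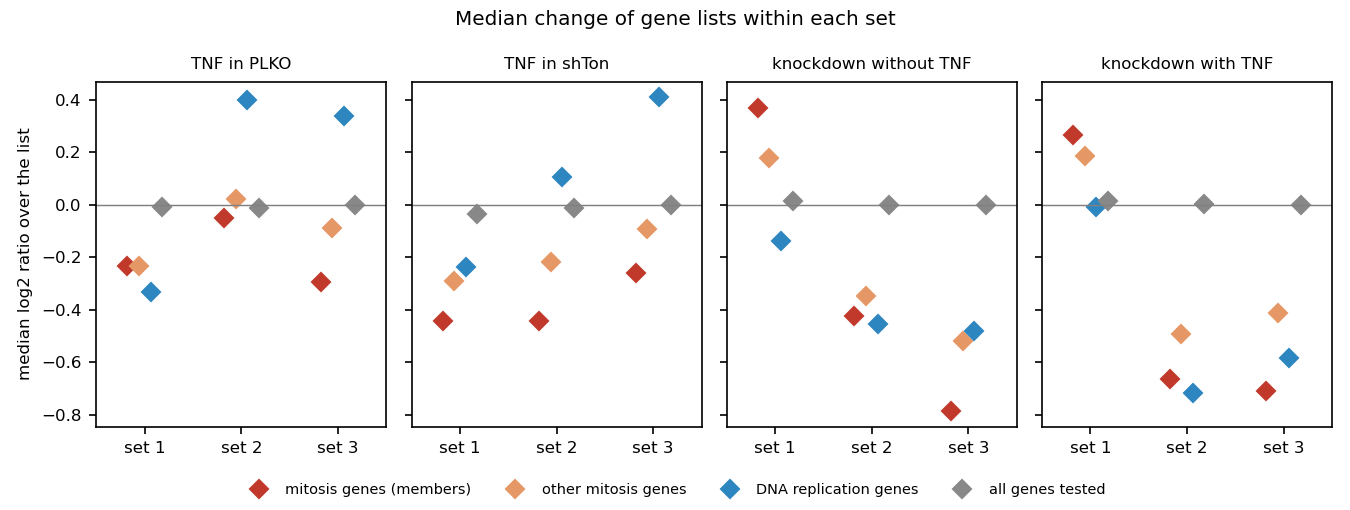
Median log2 ratio of the 2 libraries of each set over the mitosis genes, other mitosis genes, DNA replication genes and all genes tested, in 4 comparisons. With TNF-a in control cells the DNA replication genes lie above 0 in sets 2 and 3 (0.40 and 0.34), where the mitosis genes lie at -0.05 and -0.29. In set 1 both lie below 0 (-0.33 and -0.23). With knockdown both lie below 0 in sets 2 and 3. In set 1 the mitosis genes lie above 0 with knockdown (0.37 without TNF-a and 0.27 with it), and the DNA replication genes do not (-0.14 and -0.008).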

How the data were processed

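The authors deposited 3 tables of normalised signal per gene, each of 6 libraries in 2 groups and scaled by itself, per the file headers. Within 0.001 read, every value was a whole multiple of its library's step (100% whole), so reads were recovered and the 3 tables joined over 12899 genes. Novoalign 2.08.01, DESeq2 and rat build rn5 are named in the submitters' processing notes, with no role. The authors also deposited their own adjusted p-values and log2 fold changes. Their model, read counter and strandedness are not stated in any source used here.

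The test was limma 3.58.1 with trend on log2(value + 1), which understates changes of low genes, for genes averaging 10 or more normalised reads, with Benjamini-Hochberg adjustment over all genes at 0.05. Deposited pairs used the deposited values. TNF-a in knockdown cells, the interaction and levels used recovered reads with DESeq2 1.42.0 size factors over 12 libraries. The set number was a block: after subtracting group means, the 18 pairs of libraries of the same set had correlations of 0.609 to 0.889 and the 36 other pairs -0.741 to 0.18. edgeR 4.0.16, DESeq2, voom and other settings were alternatives, and scripts were tested on simulated data. The members and lists were chosen with earlier results of these data known. Statistics are given for members that passed and otherwise for the 6 of smallest p, for at most 3 genes of each other list, and for Cdkn1a and Nfat5. Others are given by value.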

Additional observations from a re-analysis of the deposited data

How the results depend on the processing

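Median changes of the mitosis genes kept their sign under each of 11 alternatives, or 12 for the interaction, where a set term for each vector left it at -0.14 and 0 genes past the threshold. They ranged from -0.23 to -0.19 for TNF-a in control cells and from -0.45 to -0.33 for TNF-a in knockdown cells. For knockdown the range was -0.58 to -0.03 without TNF-a and -0.71 to -0.20 with it. For the interaction it was -0.40 to -0.052. There -0.40 came without the set 1 library labelled shTon_TNF, in the fit with the same set term for both vectors. Counts of genes past the threshold did not hold. Of the 3 lower with TNF-a in control cells there were 0 without the replicate block, 0 with all 12 libraries, 0 without the trend, 5 with voom, and 1 to 1 leaving out each set. Of the 3 in knockdown cells there were 0 without the block, 1 with all 12 libraries, 0 without the trend, 5 with DESeq2, and 0 to 7 leaving out each set. Knockdown counts, 0 with all sets, ran from 0 to 2 without TNF-a and from 0 to 4 with it when each set was left out. The count differing among sets was 2 without PLKO_TNF and 0 without shTon_CTR. Directions turned only when a set was left out. Nfat5 with knockdown and TNF-a ran from -1.09 without set 1 to 0.18 without set 2 (0.15 without set 3), and with TNF-a in knockdown cells from -0.091 without set 1 to 1.01 without set 3. In the interaction Gins3 ran from -0.73 to 0.12, Cdkn1a was -0.044 without set 2, and Ccne1 ran from -0.051 to 0.53. The cause was not tested. A fit without a set rests on 2 pairs, and genes near 10 normalised reads, as Nek2 and Ccnb2, passed the filter in only some comparisons, with wide errors (SE 0.50 for Nek2 and 0.37 for Ccnb2 with TNF-a in control cells).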
